A study of Mus musculus with 29 samples.

Results

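The DNA damage response and repair genes described here are 34 genes picked by name from the 30025 genes of the expression table. No measured value entered the rule, but the list was chosen with earlier results of these data known. They comprise 4 genes of break sensing and resection, 4 checkpoint kinases, 7 genes of non-homologous end joining, 8 of homologous recombination, 9 of the Fanconi anemia pathway and 2 others, the mismatch repair subunit Msh6 and the poly(ADP-ribose) polymerase Parp1. All 34 were found in the table and all 34 passed the expression filter, which asked for at least 1 FPKM (fragments per kilobase of exon, scaled to the library's total of fragments) in at least 4 libraries and left 15409 genes.

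Cells repair a DNA double-strand break by joining its ends directly or by copying the sister chromatid. The first route, non-homologous end joining, is available in every phase of the cell cycle and begins when the Ku heterodimer binds the ends and recruits the DNA-dependent protein kinase catalytic subunit. The second route, homologous recombination, needs a replicated chromatid, and the Fanconi anemia pathway, which unhooks interstrand crosslinks, feeds into it. Hematopoietic stem cells are mostly quiescent and are known to rely on end joining, and inherited defects of the Fanconi anemia pathway cause bone marrow failure.

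The cells came from C57BL/6J mice of 2 genotypes, 5 wild type (WT) animals aged 12.42 to 13.28 weeks and 5 animals of 12.42 to 13.85 weeks that carry 5A3+/del, a heterozygous germ line deletion in mouse chromosome band 5A3 that models the commonly deleted segment of human 7q22. The deletion was made with Cre recombinase in embryonic stem cells between loxP sites placed in the flanking genes, so every cell of the animal carries it, in the sorted cells and in their environment alike. From the bone marrow of each mouse 3 populations were sorted by the surface level of CD150 among stem and progenitor cells negative for CD41 and CD48: the CD150hi HSC, the CD150lo HSC and the CD150neg MPP, which the sample labels call HSC as well. Each group has 5 libraries, 1 per mouse, except 5A3+/del CD150neg MPP with 4, so that 29 libraries were compared.

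The libraries held 21229490 to 38797569 fragments by back-calculation from the FPKM, and replicate libraries of a group correlated with r between 0.868 and 0.964 across genes. The genes that define the groups differed as labelled. Slamf1, which encodes CD150, was at 9.97 to 22.6 FPKM in the CD150hi HSC, 0.18 to 2.64 in the CD150lo HSC and 0.30 or less in the CD150neg MPP. The paper names 7 genes of the deleted interval as expressed in HSC. Their values summed to 98.7 to 130.0 FPKM in the WT libraries and to 48.7 to 67.6 in the 5A3+/del libraries. The 3 libraries of WT mouse 3 stood apart by Xist at 234 to 319 FPKM against at most 0.47 in the other 26. Y-linked genes summed to 0.022 to 0.124 FPKM in them and to 51.4 to 71.4 in the others, the pattern of a female among males. The labels give no sex, and sex is thus not balanced between the genotypes. For the members, the results below are given without these libraries where that changes a call. For the other genes named below such refits are not given. Granulocyte and monocyte markers summed to between 7.09 and 1250 FPKM over the libraries, with medians of 285 in WT CD150hi HSC and 15.0 in 5A3+/del CD150hi HSC. The highest single medians in these groups were those of S100a8 (146 and 8.17) and S100a9 (129 and 5.08). Elane (0.160 and 0.096), Mpo (0.172 and 0.066), Ly6g (0 and 0) and Csf1r (0.342 and 0.557) were far lower, and Csf1r was higher in 5A3+/del. Erythroid markers summed to between 4.91 and 27.3, megakaryocyte markers to between 22.7 and 58.4, T cell markers to at most 10.2 and B cell markers to at most 4.68. The sort took Sca-1+ c-kit+ cells negative for lineage markers (Gr-1 and Ter119 among them), CD41 and CD48. The part of granulocytes, erythroid cells, megakaryocytes and lymphocytes in the values below was not tested. In bulk samples fewer cells of a type and less RNA per cell cannot be told apart.

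The members' levels spanned a wide range that followed gene more than group. Values are quantile-normalized FPKM, which is per length of all annotated exons of a gene. The order of genes therefore depends on the annotated length as well as on the RNA. Parp1, the polymerase that marks strand breaks, was highest, with a mean of 24.8 over the 29 libraries (lowest library 17.2, highest 35.1), followed by Msh6 at 22.5 (15.3 to 30.8) and Rad50, the ATPase of the break-sensing MRN complex, at 20.8 (13.0 to 28.4). By mean log2(FPKM + 1) level over all libraries they stood at the 88.2, 86.7 and 85.1 percentiles of the genes tested. The other parts of the MRN complex lay lower than Rad50, with Mre11a, its nuclease, at 9.61 (5.90 to 12.6) and Nbn, its adaptor, at 9.48 (4.38 to 18.2), and the exonuclease Exo1, which extends resection, at 2.78 (0.759 to 6.00).

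Among the checkpoint kinases, the break-activated kinase Atm averaged 12.5 (7.43 to 16.7) and its effector Chek2 averaged 11.1 (5.62 to 17.5). Atr, which responds to stalled replication, averaged 8.70 (6.58 to 11.7) and its effector Chek1 averaged 4.66 (2.65 to 9.31). By overall mean each effector kinase was thus listed below the kinase that activates it on the per-length scale, but the ranges over libraries overlapped in both pairs. By group mean Chek2 lay above Atm in the WT CD150lo HSC (11.43 and 11.13) and in the 5A3+/del CD150hi HSC (12.55 and 12.09).

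The end joining genes spanned a wide range. The Ku subunits Xrcc5 (Ku80) and Xrcc6 (Ku70) averaged 16.7 and 9.03, Trp53bp1, which protects ends from resection, 8.94, and Prkdc, the catalytic subunit of the DNA-dependent protein kinase, 6.48. The ligation factors were lower. Nhej1 averaged 3.70 and Xrcc4 averaged 3.60, while the ligase itself, Lig4, averaged 0.610 and had 16 to 268 fragments per library, the lowest level of all 34 members. On this per-length scale levels were thus ordered from the end-binding factors down to the ligase, and this order depends on the annotated lengths. Prkdc had 891 to 3134 fragments over 12674 exon bases, Nhej1 19 to 447 over 1053 and Lig4 16 to 268 over 4255. Xrcc5 was at the 80.5 percentile of all genes tested and Lig4 at the 5.58 percentile by mean log2(FPKM + 1) level. The Ku subunits had overlapping fragment ranges, with 649 to 1921 over 2555 exon bases for Xrcc5 and 448 to 1678 over 4476 for Xrcc6. The part of the annotated length in the gap between them was not tested.

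Homologous recombination genes ran from Rad52, an annealing factor, at 9.13 and the helicase Blm at 6.05 down to Rad51c at 0.616. Brca2, a tumor suppressor of the pathway, averaged 5.48, Bard1, the partner of BRCA1, 3.62, Palb2, which bridges BRCA1 and BRCA2, 3.06, the translocase Rad54l 2.92, and Brca1 2.09. Of the Fanconi anemia genes, Fancg was highest at 6.49 and Fanca lowest at 0.788. Fancl, the ubiquitin ligase of the pathway, averaged 4.36, and the pair that it ubiquitinates, Fancd2 and Fanci, averaged 1.19 and 1.74. Fancm, Fancf, Fancc and Fancb lay between, at 3.29, 3.05, 2.15 and 1.80. By level, 6 of the 9 Fanconi anemia genes are among the lowest 12 members.

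**Figure D1:**
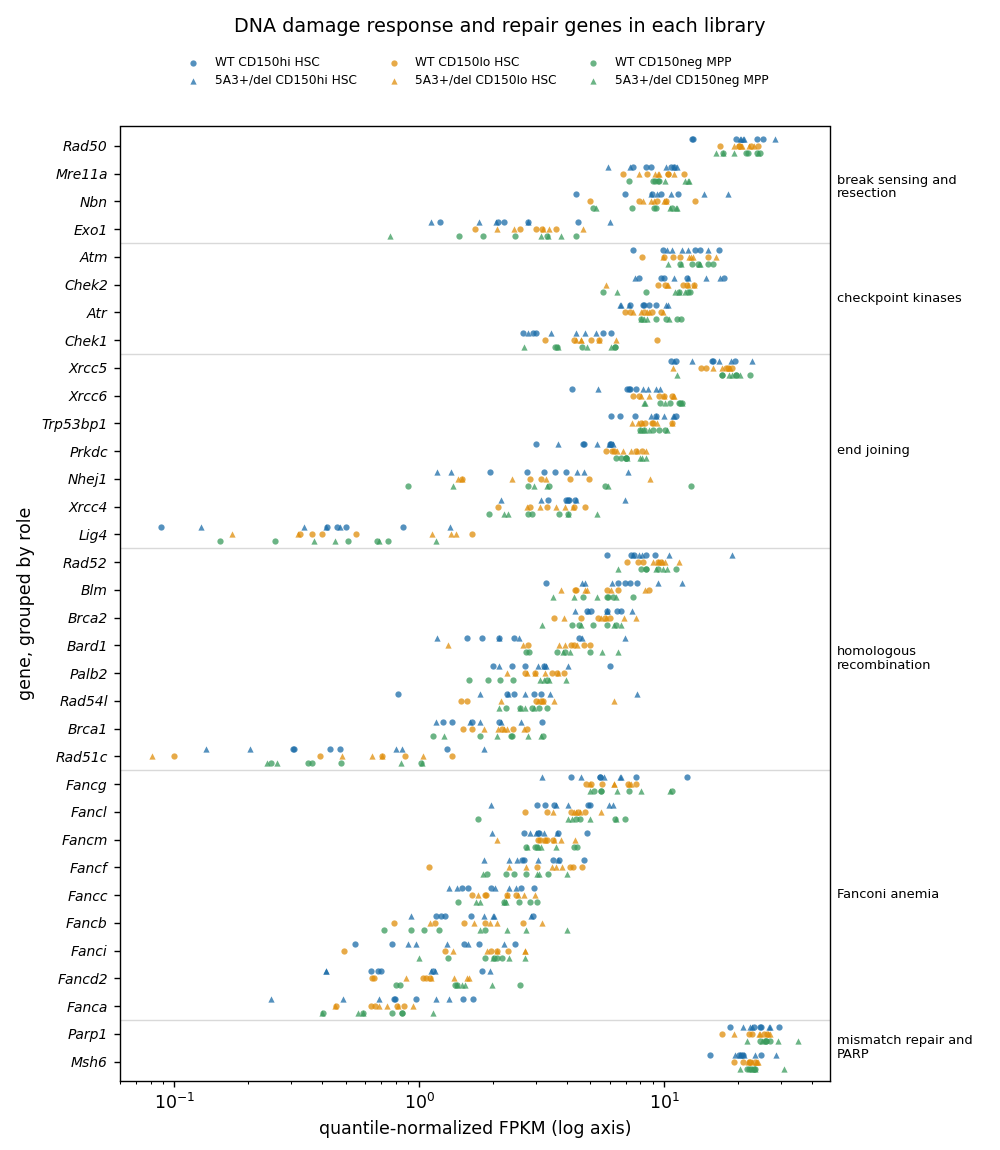
Quantile-normalized FPKM (log axis) of each of the 34 genes in each of the 29 libraries, grouped by role; colors mark the population, circles WT and triangles 5A3+/del. Genes differ from about 25 (Parp1) to about 0.6 (Lig4, Rad51c) in mean level, while the groups of 1 gene overlap in nearly every row.

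The spread between mice was smallest for Trp53bp1, with a median within-group SD of 0.14 on the log2(FPKM + 1) scale, and largest for Nhej1 at 0.73, whose libraries ran from 0.902 to 12.9 and rested on 19 to 447 fragments. Fancd2 and Rad51c had as few as 4 fragments in their lowest library. These genes have little precision whatever the comparison. Libraries were made without strand information, so reads shared with an overlapping gene cannot be assigned: 12 of the 34 members share exonic bases with another gene, 5 of them over 10% of their exon length, namely Rad54l (15.4%), Fancf (15.0%), Trp53bp1 (15.0%), Fanci (14.8%) and Fancl (13.7%).

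The first comparison asked whether the deletion changed repair gene expression within each population. No member passed the test in any of the 3 populations (limma, Benjamini-Hochberg adjusted p under 0.05 over all 15409 genes). In the CD150hi HSC 0 of 34 members passed while 24 of all genes did (0.156%), and 2 members against 13.1% of all genes had an unadjusted p under 0.05. In the CD150lo HSC 0 members passed against 0.0324% of all genes, and 0 against 6.87% at the unadjusted threshold. In the CD150neg MPP 0 passed against 0.0454%, and 3 against 4.27% at the unadjusted threshold. Medians of the members' log2 differences, 5A3+/del minus WT, were 0.05, 0.07 and 0.03 in the order CD150hi, CD150lo and CD150neg, beside 0.00, 0.01 and 0.00 over all genes.

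The intervals say how large a difference could have been missed. The 95% interval of the genotype difference lay within 1 either way on the log2(FPKM + 1) scale for 33 of 34 members in the CD150hi HSC (the exception was Nbn), 33 in the CD150lo HSC (the exception was Nhej1) and 32 in the CD150neg MPP (the exceptions were Nhej1 and Fancb). It lay within 0.58 for 20, 24 and 17 members respectively. The added 1 shrinks the differences of low genes, so for members near or below 1 FPKM, such as Lig4, Rad51c and Fanca, an interval within 1 still leaves room for a 2-fold difference in FPKM. For Parp1 the interval was -0.28 to 0.28 in the CD150hi HSC, and for Atm it was -0.34 to 0.37, so for these genes a 2-fold difference lies outside the interval.

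**Figure D2:**
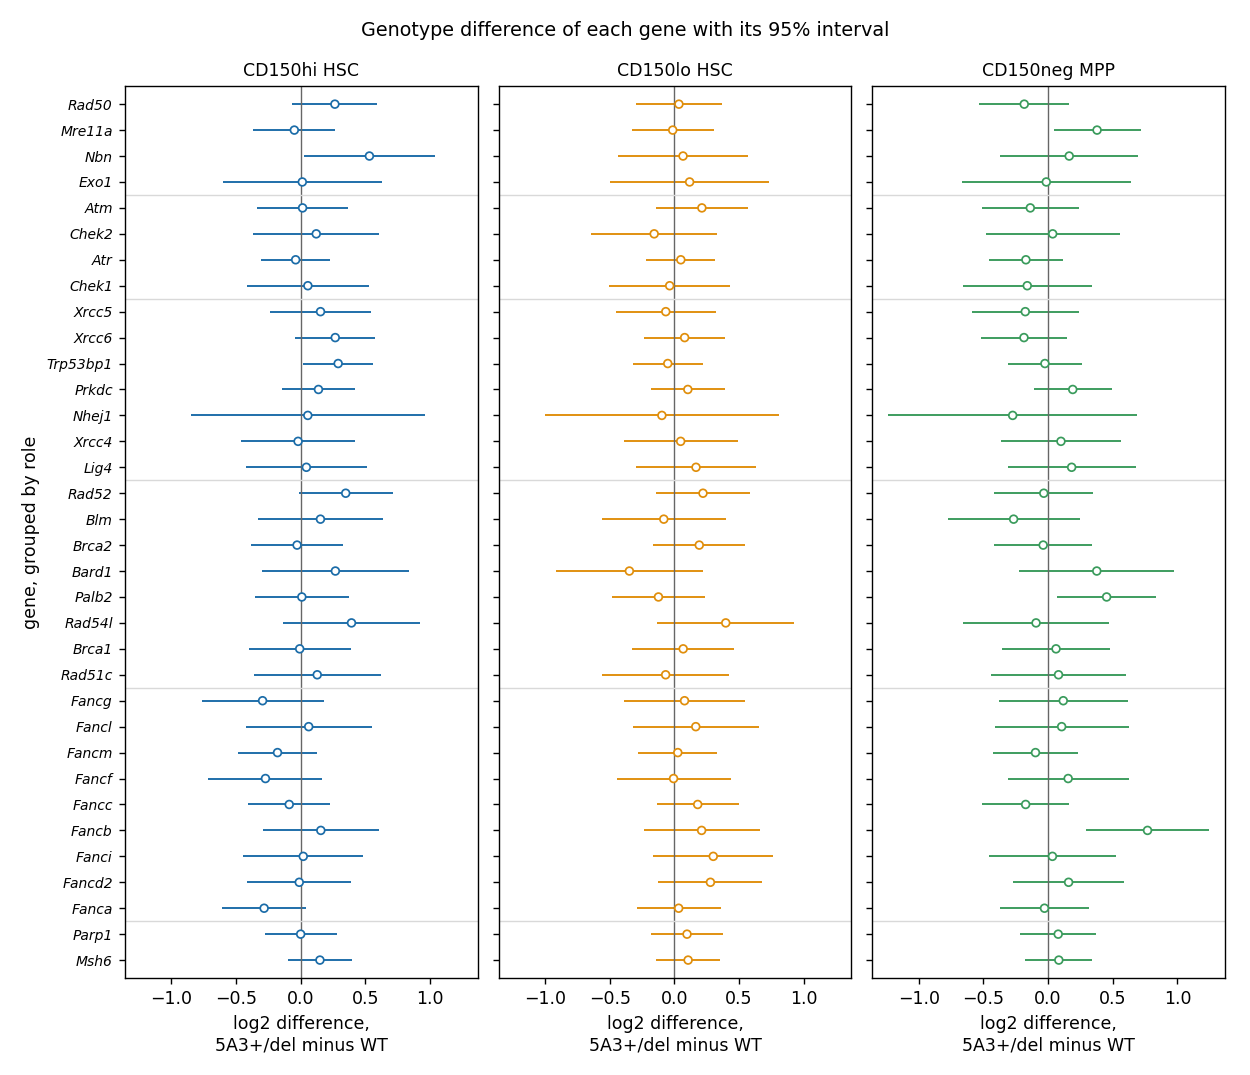
Log2 difference (5A3+/del minus WT, points) with its 95% interval (lines) for each of the 34 genes in the 3 populations; an open point marks an adjusted p of 0.05 or more. All points are open, and the intervals that lie off 0 belong to Nbn and Trp53bp1 in the CD150hi HSC and to Fancb, Palb2 and Mre11a in the CD150neg MPP.

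The members with the smallest unadjusted p by genotype are described with every library. Fancb, a subunit of the Fanconi anemia core complex that lies on the X chromosome, was at 0.719, 1.04, 0.921, 1.20 and 1.85 in the WT CD150neg MPP and at 4.02, 2.73, 1.76 and 2.27 in the 5A3+/del CD150neg MPP. Of the 4 mutant libraries, 3 lay above all WT libraries and the lowest lay just under the highest WT library. The log2 difference was 0.77 ± 0.23 (SE, n = 4 and 5) with a limma adjusted p of 0.796. In WT mouse 3, the mouse with high Xist, Fancb was at 0.921 to 2.66, inside the 0.719 to 4.02 of the other libraries.

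In the same population Palb2 was at 1.60, 3.34, 1.90, 2.14 and 2.42 in WT and at 3.98, 3.12, 3.39 and 3.23 in 5A3+/del, where WT mouse 2 lay among the mutant values and the other 4 WT libraries lay below them. Its log2 difference was 0.45 ± 0.19 (limma adjusted p = 1.00). Mre11a was at 9.21, 7.19, 8.98, 9.45 and 9.55 in WT and at 12.5, 12.1, 12.6 and 10.1 in 5A3+/del, and the groups did not overlap. The log2 difference of 0.38 ± 0.16 did not pass the adjustment (limma adjusted p = 1.00). Mre11a and Nbn belong to 1 complex with Rad50, whose log2 difference in these cells was -0.18 ± 0.17.

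In the CD150hi HSC, Nbn was at 4.38, 9.72, 11.4, 8.92 and 6.93 in WT and at 18.2, 8.88, 10.7, 14.5 and 9.35 in 5A3+/del. The 2 highest values are mutant and the 2 lowest are WT, and the remaining libraries intermingle. The log2 difference was 0.53 ± 0.25 (limma adjusted p = 0.358). Trp53bp1 was at 9.28, 6.05, 11.2, 6.58 and 7.60 in WT and at 11.0, 9.95, 10.9, 8.83 and 9.27 in 5A3+/del, where the WT group spanned the whole mutant range and the log2 difference was 0.29 ± 0.13 (limma adjusted p = 0.342).

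By role, the genotype medians differed in sign between populations for the Fanconi anemia genes, the end joining genes and the checkpoint kinases. The Fanconi anemia genes were at -0.09 in the CD150hi HSC with 3 of 9 genes positive, 0.17 in the CD150lo HSC with 8 of 9 positive and 0.11 in the CD150neg MPP with 6 of 9 positive. Of all genes 50.7%, 52.0% and 49.8% were positive in these populations. The members' median SE was 0.19, 0.19 and 0.21. The 8 homologous recombination genes had medians of 0.14, 0.00 and 0.01, and the 7 end joining genes 0.14, 0.05 and -0.02. The checkpoint kinases were at 0.04, 0.01 and -0.15. The break sensing and resection genes were at 0.14, 0.05 and 0.07, and the pair of Msh6 and Parp1 at 0.07, 0.10 and 0.08.

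The second comparison asked how the members change from the CD150hi HSC, the most quiescent of the populations in textbook accounts, to the CD150neg MPP. In WT mice 2 members rose, both of them subunits of the DNA-dependent protein kinase holoenzyme: Xrcc6 and Prkdc. In 5A3+/del mice Prkdc rose and no other member passed. No member fell in either genotype. Against the background, 2 of 34 members passed in WT where 10% of all genes did, all in the higher direction where 4.58% of all genes rose, and 1 of 34 passed in 5A3+/del where 6.16% of all genes did and 2.93% rose. At the unadjusted threshold the counts were 4 members against 21.8% of all genes in WT and 3 members against 16.9% in 5A3+/del. The share of members called is thus near or below that of all genes.

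Xrcc6 lies at chr15:81818265-81870515 on the plus strand (mm9), and 7.69% of its exonic bases are shared with Pppde2 on the other strand. In WT mice it was at 4.19, 7.15, 7.02, 7.24 and 7.67 in the CD150hi HSC, at 7.93, 9.54, 7.46, 9.95 and 10.8 in the CD150lo HSC and at 9.60, 10.6, 11.8, 11.6 and 11.5 in the CD150neg MPP. The values rose along this order in each of the 5 mice, and the lowest CD150neg MPP library lay above the highest CD150hi HSC library. The group means of 6.65 ± 1.4 and 11.0 ± 0.92 (SD, n = 5) differed 1.66-fold, with a log2 difference of 0.67 ± 0.15 (SE) and a limma adjusted p of 0.00379. WT mouse 1, the lowest in the CD150hi HSC, did not decide the call, since without that library the log2 difference was 0.54 with an adjusted p of 0.0172.

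In 5A3+/del mice Xrcc6 was at 5.36, 9.28, 9.65, 8.18 and 8.58 in the CD150hi HSC, at 8.68, 9.95, 8.05, 10.9 and 10.8 in the CD150lo HSC and at 8.25, 10.1, 8.32 and 11.9 in the CD150neg MPP. The 3 populations overlap, and the CD150neg MPP was higher than the CD150hi HSC in 3 of 4 mice. The log2 difference was 0.22 ± 0.16 (limma adjusted p = 0.562). The difference between the genotypes in this step was -0.45 ± 0.22 with an unadjusted p of 0.0496 and a limma adjusted p of 0.626, so a genotype effect on the Xrcc6 step is not shown.

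The steps to and from the middle population did not pass on their own. For Xrcc6 in WT, CD150lo minus CD150hi was 0.42 ± 0.15 (limma adjusted p = 0.162) and CD150neg minus CD150lo was 0.25 ± 0.15 (adjusted p = 0.694). The order of the levels is CD150hi, CD150lo, CD150neg, with each step upward in 5 of 5 WT mice and neither step past the adjusted threshold.

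Prkdc lies at chr16:15637959-15842332 on the plus strand (mm9). In WT it was at 2.99, 4.65, 6.03, 6.06 and 4.72 in the CD150hi HSC, at 6.23, 6.14, 5.79, 8.12 and 7.66 in the CD150lo HSC and at 6.33, 6.64, 6.99, 6.98 and 7.01 in the CD150neg MPP. In 5A3+/del it was at 3.67, 6.17, 5.95, 6.01 and 5.33, then at 6.41, 6.80, 7.29, 8.45 and 7.78, and at 7.98, 8.43, 7.06 and 8.13. In both genotypes the CD150neg MPP libraries all lay above the CD150hi HSC libraries, and mouse 1 was the lowest in the CD150hi HSC of each.

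The Prkdc log2 difference between the CD150neg MPP and the CD150hi HSC was 0.43 ± 0.14 in WT (limma adjusted p = 0.0457) and 0.48 ± 0.15 in 5A3+/del (adjusted p = 0.0459), higher in 5 of 5 and 4 of 4 mice. Both calls are close to the threshold. In WT the call was lost on leaving out any of 8 of the 10 libraries, all except WT CD150hi HSC replicates 3 and 4, with adjusted p up to 0.163. In 5A3+/del it was lost for 7 of 9 libraries, all except CD150hi HSC replicates 2 and 4, with adjusted p up to 0.145, and it was also lost without the libraries of WT mouse 3 (0.0514), which enter that test through the shared normalization and variance. The direction held in each case. From CD150hi to CD150lo the difference was 0.42 ± 0.14 in WT (adjusted p = 0.104) and 0.39 ± 0.14 in 5A3+/del (adjusted p = 0.153), and from CD150lo to CD150neg it was 0.01 ± 0.14 and 0.10 ± 0.15.

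**Figure D3:**
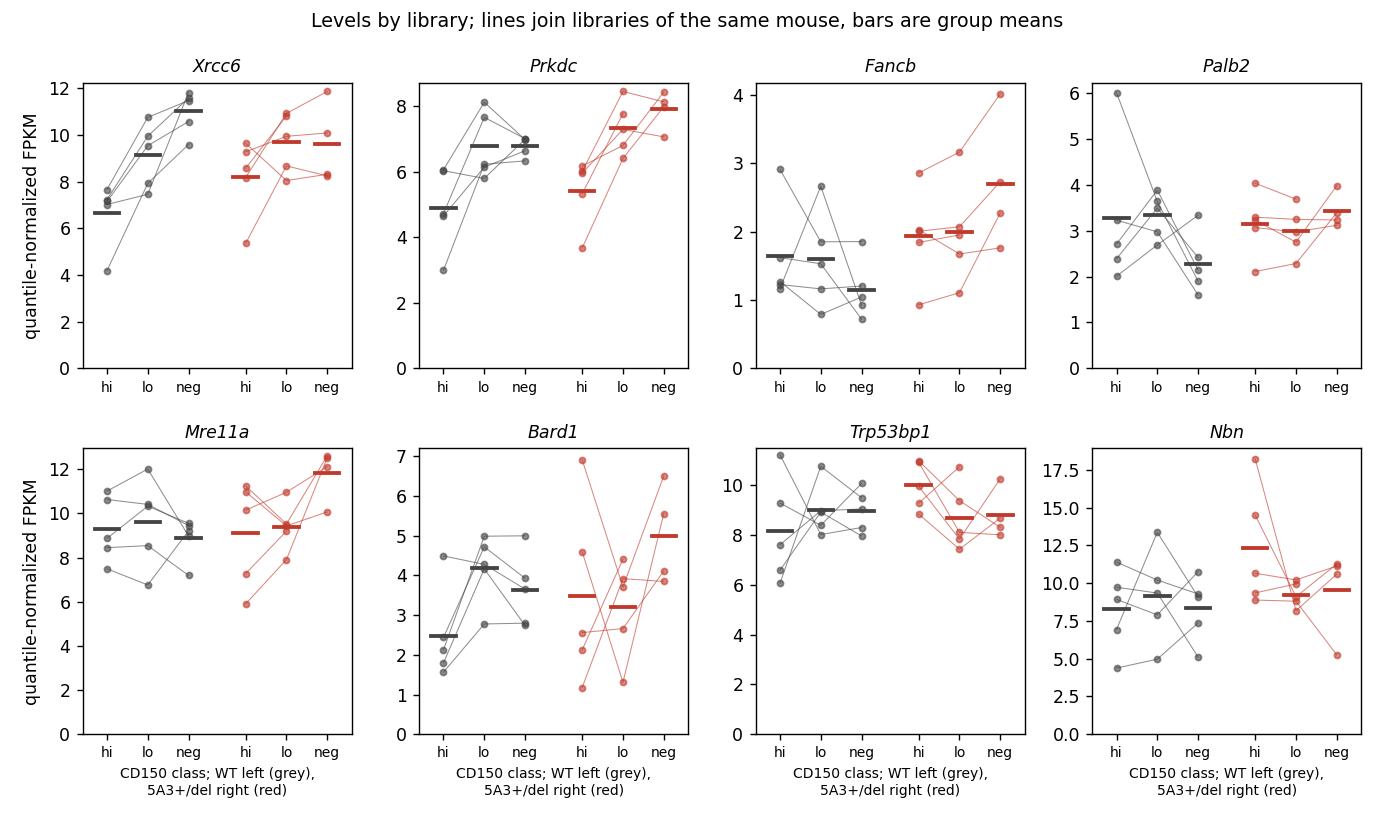
Quantile-normalized FPKM of the 8 genes with the smallest p, by library, with WT in grey and 5A3+/del in red and the CD150hi, CD150lo and CD150neg populations from left to right; thin lines join libraries of 1 mouse and bars are group means. Xrcc6 in WT and Prkdc in both genotypes are higher in every CD150neg MPP library than in any CD150hi HSC library, and the other 6 genes show overlapping groups in most comparisons.

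The third subunit of the kinase, Xrcc5, had a log2 difference of 0.41 ± 0.19 in WT (limma adjusted p = 0.202) and 0.08 ± 0.20 in 5A3+/del (adjusted p = 0.903). Of the other end joining genes, Xrcc4 was at -0.31 and -0.19 and Nhej1 at 0.30 and -0.03, with intervals that include 0 in both genotypes. The 7 end joining genes had a median difference of 0.30 in WT and 0.08 in 5A3+/del. The 8 homologous recombination genes had 0.05 and -0.12, with Bard1 highest in both at 0.44 ± 0.28 and 0.55 ± 0.29, and the 9 Fanconi anemia genes 0.00 and 0.20. Over all 34 members the median was 0.13 in WT, with 24 positive (70.6%, beside 50.9% of all genes), and 0.08 in 5A3+/del, with 22 positive (64.7%, beside 50.6% of all genes). These medians compare with 0.01 and 0.00 over all genes.

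**Figure D4:**
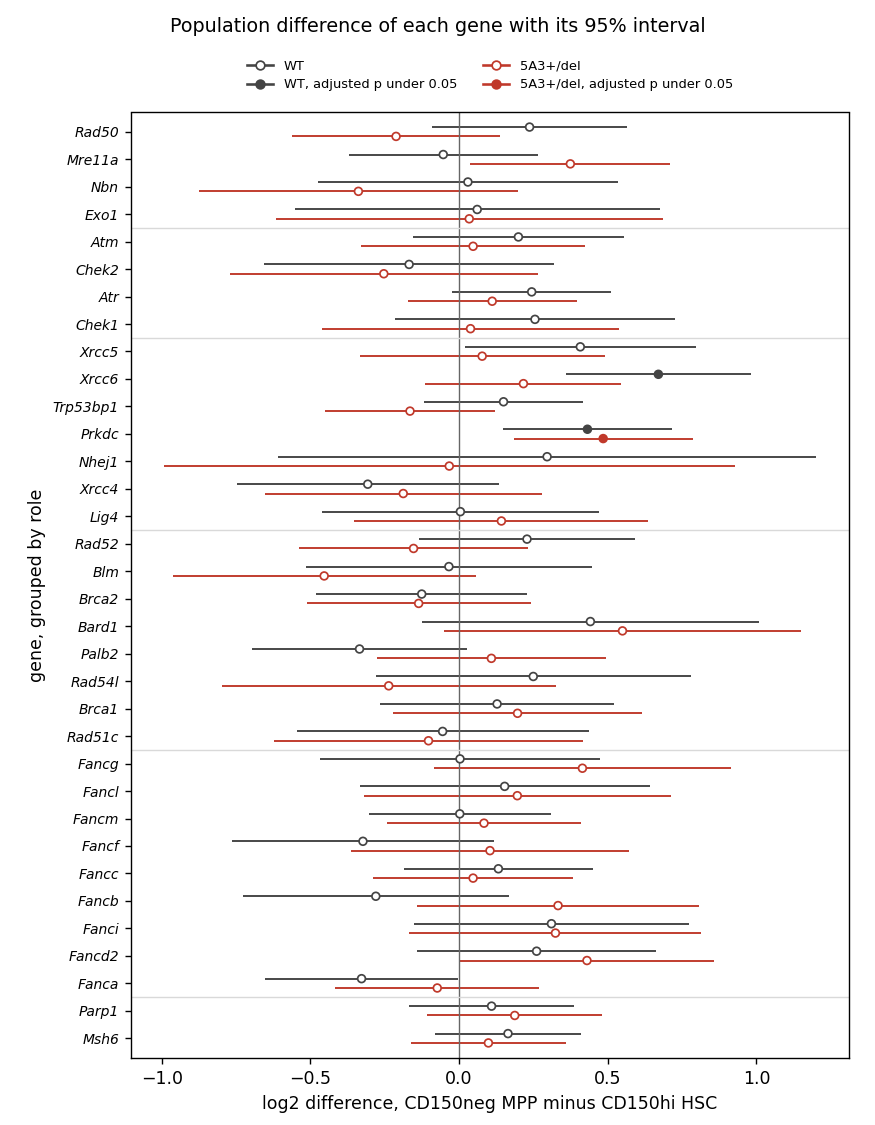
Log2 difference (CD150neg MPP minus CD150hi HSC, points) with its 95% interval (lines) for each gene in WT (grey) and 5A3+/del (red); filled points have an adjusted p under 0.05. The filled points are Xrcc6 in WT and Prkdc in both genotypes.

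The single steps between neighboring populations gave no calls among the members. From CD150hi to CD150lo HSC 0 of 34 members passed in WT, where 3.53% of all genes did, and 0 of 34 in 5A3+/del, where 3.18% did (limma). At the unadjusted threshold 4 members against 14.1% of all genes were counted in WT and 1 member against 13.3% in 5A3+/del. Bard1 was among the 4. It was at 1.80, 1.56, 4.49, 2.44 and 2.12 in the WT CD150hi HSC and at 4.16, 2.78, 4.28, 4.72 and 4.99 in the WT CD150lo HSC, where WT mouse 3 alone placed the CD150hi group inside the CD150lo range, and the log2 difference was 0.61 ± 0.28 (adjusted p = 0.301).

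From CD150lo HSC to CD150neg MPP 0 members passed in WT (0.188% of all genes) and 0 in 5A3+/del (0.0389%), with 1 member against 8.75% and 0 members against 4.95% at the unadjusted threshold. The member in WT was Palb2, which had a log2 difference of -0.42 ± 0.18 (limma adjusted p = 0.474).

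The difference between the genotypes in each step was tested directly. No member passed in the steps from CD150hi to CD150lo, from CD150lo to CD150neg or from CD150hi to CD150neg, as did 0 of all genes (0% each, limma). At the unadjusted threshold the members numbered 0, 1 (Palb2, 0.58 ± 0.26) and 1 (Xrcc6, above), beside 3.98%, 5% and 7.96% of all genes.

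Markers of cycling cells were measured beside the end joining genes. None of 22 cell cycle markers passed in any comparison. From CD150hi HSC to CD150neg MPP their median log2 difference was 0.27 in WT, with 18 of 22 positive beside 50.9% of all genes. In 5A3+/del it was 0.28, with 19 of 22 positive beside 50.6% of all genes. The medians in WT and 5A3+/del were 0.13 and 0.08 over all members, and 0.30 and 0.08 over the 7 end joining genes. At the unadjusted threshold 3 of 22 were counted in WT beside 21.8% of all genes, with Mcm6 at 0.48 and Mki67 at 0.67 but Cdk1 at -0.47. In 5A3+/del 4 of 22 were counted beside 16.9% of all genes, namely Mcm2, Mcm5, Mcm7 and Top2a, all positive. The 12 S phase genes summed to 175 to 241 FPKM in the WT CD150hi HSC and 216 to 258 in the WT CD150neg MPP, and the 10 genes of G2 and mitosis to 31.4 to 84.1 and 55.4 to 109. Their part in the Xrcc6 and Prkdc values was not tested. Mcm4, a subunit of the replicative helicase, starts 466 bases from Prkdc on the other strand (mm9), and its log2 differences were 0.32 ± 0.20 in WT (limma adjusted p = 0.389) and 0.25 ± 0.21 in 5A3+/del (adjusted p = 0.632).

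Many repair genes are known targets of the E2F factors that drive S phase transcription, so the promoters of the members were searched for the 8-base E2F motif on either strand, written TTTCCCGC, TTTGGCGC, TTTCGCGC or TTTGCCGC. RefSeq promoters (GRCm38.p6, 250 bases before to 50 after the start) were matched for 29 of the 34 members. The motif was in the promoters of 7 of them and in 8 of their 32 promoters (25%), against 2.26% of all 32851 promoters. All promoters were not matched to the members by base content or expression, so an excess over comparable promoters was not tested. The shorter CCAAT box was in 50% of the members' promoters and in 37.4% of all, and the TATA box, TATAAA, in 6.25% and 13.6%. A match is a description of the letters and not a bound site. The 7 genes cover several roles and levels, from Msh6 with 22.5 FPKM to Rad51c with 0.616, and of these 7 Xrcc6 passed a population test. Prkdc, Rad50, Nbn, Exo1 and Fancd2 were not among the 29 and were not searched.

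The stretches around the motif are shown 5′ to 3′ along each gene's strand, with the motif in capitals, to let its 2 orientations be compared. Rad51c has 2, 1 in each of its promoters.
Xrcc6: gggggtggaaGCGGGAAAtgcgagtggg
Brca2: ttaggccacaGCGGGAAAcagacacaca
Chek2: gggattagccGCGGGAAAccaagacgtc
Rad51c: ccccgcgaggGCGGGAAAagcaaggggt
Rad51c: tttccagcgcTTTCGCGCctcttgctct
Bard1: cgccgctcagTTTCCCGCtcaggaagtt
Fancg: ttcttttcagTTTCCCGCggaaccgtct
Msh6: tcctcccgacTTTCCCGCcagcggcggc
In 4 of the 8 stretches the motif reads GCGGGAAA along the gene, the reverse complement of TTTCCCGC, and in 3 it reads TTTCCCGC itself.

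The whole upstream part of the Xrcc6 promoter is given because Xrcc6 is the member with the firmest population difference. It is chr15:82016119-82016368 on the plus strand (GRCm38.p6), 250 bases ending at the base before the start, with the E2F motif in capitals from position -46 counted back from the start. Of its bases 65.2% are G or C.
Xrcc6: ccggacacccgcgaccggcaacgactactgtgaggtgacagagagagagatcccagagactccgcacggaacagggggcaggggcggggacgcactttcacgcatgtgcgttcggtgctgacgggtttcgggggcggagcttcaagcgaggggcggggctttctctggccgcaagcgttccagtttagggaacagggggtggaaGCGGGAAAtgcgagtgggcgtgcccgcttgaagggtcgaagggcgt

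Other repair genes were followed from a list of 82, of which 81 were found and 80 tested. None passed by genotype in the CD150hi, CD150lo or CD150neg cells (limma), with 8, 1 and 2 of 80 under the unadjusted threshold beside 13.1%, 6.87% and 4.27% of all genes. Between the CD150hi HSC and the CD150neg MPP 1 of 80 passed in WT, where 10% of all genes did, and 4 of 80 in 5A3+/del, where 6.16% did. Between the CD150hi HSC and the CD150neg MPP, Polm, an end joining polymerase, fell in WT from 1.37 ± 1.07 to 0.18 ± 0.12 normalized FPKM (mean ± SD, log2 difference -0.92 ± 0.25, limma adjusted p = 0.0191) and in 5A3+/del from 1.42 ± 1.05 to 0.22 ± 0.24 (-0.91 ± 0.27, adjusted p = 0.0420). Its CD150neg MPP means lie below the 1 FPKM of the expression filter. A gene this low can pass that filter through the groups where it is high, so its fall is a description only. In 5A3+/del 3 more passed. Poll, the sister polymerase of Polm, rose from 3.48 ± 1.12 to 8.90 ± 3.57, Xpc, the damage sensor of nucleotide excision repair, rose from 6.14 ± 2.40 to 11.3 ± 3.04, and Smug1, a uracil glycosylase, fell from 6.19 ± 0.82 to 3.41 ± 0.44 (limma adjusted p = 0.00273, 0.0118 and 0.0492). The calls of Smug1 and of Polm in 5A3+/del are close to the threshold. How the calls of this list hold without single libraries or without WT mouse 3 is not given. No gene of the list passed in the other population steps, or in the differences between genotypes. At the unadjusted threshold the step from CD150hi to CD150lo counted 4 in WT and 7 in 5A3+/del, beside 14.1% and 13.3% of all genes, and the step from CD150lo to CD150neg counted 1 and 3, beside 8.75% and 4.95%. The differences between genotypes counted 1, 2 and 6, beside 3.98%, 5% and 7.96%.

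The p53 pathway, which the checkpoint kinases signal to, was followed with 20 tested genes of 21. Trp53 had log2 levels of 5.97 in WT CD150hi HSC and 5.94 in WT CD150neg MPP, and the target Cdkn1a had differences of -0.02 ± 0.40 in WT and 0.38 ± 0.42 in 5A3+/del. From CD150hi HSC to CD150neg MPP 4 of 20 passed in WT, where 10% of all genes did, and 3 of 20 in 5A3+/del, where 6.16% did. In WT 2 genes rose from CD150hi HSC to CD150neg MPP, the p53 inhibitor Mdm4 (mean normalized FPKM ± SD of 43.3 ± 9.27 to 61.0 ± 8.68) and Trp53inp1 (8.23 ± 2.80 to 13.4 ± 2.89), and 2 fell, the death receptor Fas (1.24 ± 0.61 to 0.31 ± 0.34) and the kinase Plk2 (8.50 ± 3.18 to 3.63 ± 1.33), with limma adjusted p between 0.0276 (Fas) and 0.0364 (Mdm4). In 5A3+/del 3 fell, Fas (1.83 ± 0.70 to 0.27 ± 0.31), Plk2 (11.5 ± 3.06 to 3.73 ± 2.15) and the death receptor Tnfrsf10b (6.31 ± 2.99 to 2.06 ± 1.26), with adjusted p between 0.00218 (Fas) and 0.00462 (Tnfrsf10b). Fas and Plk2 had also fallen by the CD150lo HSC in 5A3+/del, with log2 differences of -1.17 ± 0.22 and -1.58 ± 0.31 (limma adjusted p = 0.00196 and 0.00225), 2 of 20 beside 3.18% of all genes. Fas averaged below 1 FPKM in the CD150neg MPP of both genotypes and in the 5A3+/del CD150lo HSC (0.24), so its falls carry the filter limit given for Polm. How the p53 pathway calls hold without single libraries or without WT mouse 3 is not given either. None of the 20 passed by genotype (limma), with 2, 1 and 1 at the unadjusted threshold beside 13.1%, 6.87% and 4.27% of all genes, or in a difference between genotypes, with 2, 0 and 3 beside 3.98%, 5% and 7.96%.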

How the data were processed

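Sorted cells were taken for RNA from 5 WT and 5 5A3+/del mice, 10 ng of RNA was amplified (NuGEN Ovation V2) and paired-end libraries were sequenced. The authors deposited one table of FPKM per gene for the 29 libraries. Per the labels, the processing notes name Bowtie 0.12.2, HTSeq and mm9. The FPKM are not counts. FPKM times exon length gave whole fragments (within 0.05) for 98.4% to 99.0% of values up to 10 fragments. These recovered fragments were used for depth and for an added alternative.

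FPKM were transformed as log2(FPKM + 1), filtered (at least 1 FPKM in at least 4 libraries), quantile normalized and fitted in limma 3.58.1 (R 4.3.3) with 6 group means. Two-sided moderated tests were adjusted by Benjamini-Hochberg over 15409 genes per comparison. Fold differences are on the log2(FPKM + 1) scale, which understates changes of low genes. Normalized FPKM are the back-transformed values. The script was tested on simulated data. The 8 genes shown library by library are those that passed in any comparison, filled up by smallest unadjusted p. Genes of other lists are named up to 4 per comparison by smallest adjusted p. The members and lists were chosen with earlier results of these data known. Animals are the replicates. Sample codes tie the populations of each mouse: deviations from group means of same-mouse libraries correlated with median r of 0.056 to 0.152 for the 6 pairs of populations, so mouse was tried as a block. Alternatives are in the closing section.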

Additional observations from a re-analysis of the deposited data

Results flagged for a closer look

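In 48 groups of 4 or 5 libraries (8 genes in 6 groups), 4 held a library far from the others by Dixon's criterion, where chance flags about 1 in 20 groups, or 2.4 of 48. Xrcc6 was at 4.19 normalized FPKM in WT CD150hi HSC replicate 1, below the 7.02 to 7.67 of the other 4 libraries. Fancb was at 2.91 in WT CD150hi HSC replicate 5, above the others at 1.17 to 1.62. Mre11a was at 7.19 in WT CD150neg MPP replicate 2, below the others at 8.98 to 9.55. Nbn was at 5.25 in 5A3+/del CD150neg MPP replicate 2, below the others at 10.6 to 11.3.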

How the results depend on the processing

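The counts of members called were unchanged at 0 in the 3 genotype comparisons, the 4 steps between neighboring populations and the 3 differences between genotypes, under each alternative run. From CD150hi HSC to CD150neg MPP the WT count of 2 became 1 (Xrcc6 alone) with no expression filter, with FPKM as deposited, with a trend in the variance prior and with only the groups compared, and 1 to 2 on leaving out each library. The 5A3+/del count of 1 (Prkdc) became 0 with a pseudocount of 0.1 and with those same 4 settings, 0 without the libraries of WT mouse 3, and 0 to 1 on leaving out each library. The cause was not tested. With mouse as a replicate block the counts stayed at 2 and 1, and blocking by title number left the genotype counts at 0, so no block changed a call. Xrcc6 in WT kept its call in all 20 alternatives (log2 difference 0.54 to 0.76, adjusted p 0.00186 to 0.0287). Prkdc kept it in 8 of 20 in WT (adjusted p 0.0240 to 0.163) and in 6 of 19 in 5A3+/del (0.0306 to 0.193), always with the same sign. The fits with voom on recovered fragments and without WT mouse 3 were chosen after seeing the data. Members with few fragments, such as Lig4, Rad51c and Fancd2, limit what could be detected.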
